A study of Homo sapiens with 8 samples.

Results

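The cells described here had been treated with BMP4 and VEGF and carry the label mesoderm. They were compared with the undifferentiated human pluripotent stem cells (hPSC) they came from. Both groups were of the established human embryonic stem cell line H1, and the comparison covers the 4 of 8 libraries that hold these groups, chosen by the cell type in their titles, with 2 repeats each. The hPSC were kept on Matrigel in mTeSR1 medium. The mesoderm cells were collected on day 5 in medium with 100 ng/ml VEGF, 100 ng/ml BMP4, 10 ng/ml bFGF and 0.5% FBS, with 100 ng/ml Activin A for the first 24 hours. The other 4 libraries were H1 cells labelled ectoderm and endoderm, and they served to estimate the spread and to set a gene's level beside. Both were collected on day 5, and the endoderm cells were given 100 ng/ml Activin A and 0.5% FBS. RNA was read as long PacBio reads and counted per assembled transcript, and a gene's count is the sum over its named transcripts.

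BMP4 is a ligand of the TGF-beta superfamily. It binds a pair of serine/threonine kinase receptors that phosphorylate SMAD1, SMAD5 and SMAD9, which enter the nucleus with SMAD4 and switch on targets such as the ID genes, and among the targets are the pathway's own inhibitors. NODAL and Activin use the related SMAD2 and SMAD3, and together with FGF they keep human pluripotent cells undifferentiated. In the early human embryo BMP signalling takes part in forming both mesoderm and the extraembryonic amnion.

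The total count was 519306 and 562042 in hPSC and 531106 and 503840 in mesoderm, so that 3 counts, the most that a count of 0 allows, are from 5.34 to 5.95 CPM (counts scaled to a library total of 1e+06) by library, for counting error only. The hPSC repeats differed from each other more than the mesoderm repeats did, with a Pearson's r of log2 CPM across genes of 0.870 against 0.945 and a chi-square over its degrees of freedom of 7.77 against 1.62. CCN2, a matrix-associated signalling protein, had 184 and 5 counts in the hPSC repeats, and COL18A1, a basement membrane collagen, had 171 and 23. By read, the mean length of the assigned transcript (in nt) was 3298 and 3114 in the hPSC repeats, and 3765 and 3840 in those of mesoderm. Nothing in the labels says that the repeats were separate cultures, so p-values measure only the spread between these samples. In such bulk RNA, fewer cells of a type and less RNA per cell cannot be told apart.

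Of 10525 genes with enough counts to test, 3668 differed between mesoderm and hPSC (34.9%), 1789 higher in mesoderm (17%) and 1879 lower (17.9%), by edgeR's quasi-likelihood test at a Benjamini-Hochberg adjusted p under 0.05. Both mesoderm libraries lay above both hPSC libraries in 39.7% of the genes tested, and below both in 27%. These are the backgrounds for every list that follows, and the median log2 fold change of all genes tested was 0.01. Every adjusted p given for a gene comes from this fit, ± is the SE of a log2 fold change of mesoderm over hPSC, and "called" means past that threshold. Where a group had 0 counts the fold is a bound against 3 counts per library. Where it had 1 to 3, the ratio of pooled CPM stands with its 95% interval for counting error. Without mesoderm repeat 1 the count was 2133 and without repeat 2 it was 1909. List counts are therefore followed by the counts with hPSC repeat 1, hPSC repeat 2, mesoderm repeat 1 and mesoderm repeat 2 left out, in that order.

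The 5 markers given for this comparison were all called higher. GABRP, a GABA receptor subunit, had 9 and 7 counts in hPSC and 2269 and 2355 in mesoderm, a log2 fold change of 8.0 ± 0.47 (adjusted p 1.14e-07), with 2 and 0 counts in ectoderm and 0 in both endoderm libraries. LUM, which encodes the matrix proteoglycan lumican, had 0 counts in both hPSC libraries and 291 and 334 in mesoderm, at least 105-fold higher. COL1A1, the main chain of type I collagen, had 130 and 96 counts against 1548 and 1880 (3.77 ± 0.34, adjusted p 1.27e-06). In each case both mesoderm libraries lay above both hPSC libraries with no overlap.

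Markers of several other cell types were measured beside them. Of 21 tested amnion and trophoblast markers, 20 were higher and none lower (18 higher without mesoderm repeat 1), and their summed level was 911 and 906 CPM in hPSC and 14048 and 15769 CPM in mesoderm. VTCN1, an immune checkpoint ligand found in trophoblast, had 1 and 1 counts against 194 and 184, 197-fold higher (interval 54.3 to 1637), and CGA, the common subunit of glycoprotein hormones, had 0 counts in hPSC and 29 and 33 in mesoderm, at least 10.4-fold higher. Much of the summed mesoderm level came from GABRP (4272 and 4674 CPM) and KRT18 (4227 and 4644 CPM). KRT18, a keratin, was not called between mesoderm and endoderm (adjusted p 0.809). Some of the 20 are targets of BMP or are also listed as mesoderm markers, among them HAND1, GATA3 and ISL1. The lateral and cardiac list had 6 of 9 tested members higher, with summed levels of 44.3 and 42.7 CPM against 1258 and 1431 CPM. ISL1, a transcription factor of cardiac progenitors, amnion and motor neurons, had 1 and 0 counts against 83 and 93, 184-fold higher (interval 32.6 to 7304). Of the defining cardiac factors on that list, GATA4 had 0 counts in all 4 libraries, and NKX2-5 had 1 count in mesoderm repeat 1 and 0 in the others.

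Early mesoderm and vessel markers were low in mesoderm. The 9 primitive streak genes of the assembly summed to 21.2 and 48.0 CPM in hPSC and to 15.1 and 7.94 CPM in mesoderm, and EOMES, MIXL1 and GSC, transcription factors of the streak, had 0 counts in both mesoderm libraries. Of 6 streak genes tested 2 were lower and none higher, and none was called with hPSC repeat 2 or either mesoderm library left out. The paraxial and intermediate list summed to 9.63 and 10.7 CPM in hPSC and to 22.6 and 13.9 CPM in mesoderm, and its 1 tested member was not called. The endothelial list, with summed levels of 285 and 201 CPM against 67.8 and 49.6 CPM, had none of 4 tested members higher and 2 lower. EGFL7, a factor secreted by endothelial cells, fell from 54 and 46 counts to 12 and 13 (-2.15 ± 0.39, adjusted p 0.000604). Of the blood markers 2 were tested, and 1 was higher. It was RUNX1, a transcription factor of blood formation, which had 0 counts in hPSC and 22 and 32 in mesoderm, at least 9.08-fold higher. Mesoderm is therefore used below as the name of the group in its label. In 2 further lists most members were higher, extraembryonic mesoderm and fibroblast with 7 of 8 tested members higher and 1 lower (499 and 436 CPM against 6389 and 7159 CPM) and neural crest and placode with 4 of 5 higher and 1 lower (179 and 39.1 CPM against 772 and 857 CPM). These lists share genes with others. The extraembryonic list holds the given markers HAND1, LUM and COL1A1, and COL1A1 alone was at 2915 and 3731 CPM in mesoderm. The neural crest and placode list holds TFAP2A and TFAP2B of the amnion and trophoblast list, and the BMP target MSX2. The marker lists are thus not separate counts of cell types. How far cells of each kind contribute to the lists below was not tested.

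Of 7 tested neural markers none was higher, 1 was lower and 6 were not called (summed levels of 206 and 171 CPM in hPSC and 30.1 and 37.7 CPM in mesoderm). Of 10 tested endoderm markers 1 was higher, 1 lower and 8 were not called (69.3 and 37.4 CPM against 26.4 and 17.9 CPM), with SOX17, CER1 and GATA4 at 0 counts in mesoderm. The smooth muscle list had 4 of 6 tested members higher (329 and 363 CPM against 906 and 909 CPM), among them ACTA2, smooth muscle actin, with 2 and 0 counts against 35 and 31, a ratio of 34.5 (interval 9.17 to 291). The pluripotency list had 9 of 10 tested members lower, summing to 4822 and 4516 CPM against 488 and 478 CPM. Within it LIN28A, an RNA-binding protein that blocks let-7 processing, was still at 121 and 103 counts in mesoderm after 421 and 344 in hPSC (-1.93 ± 0.31, adjusted p 0.000256). ZFP42, a zinc finger protein also called REX1, had 113 and 140 counts against 46 and 34 (-1.84 ± 0.33, adjusted p 0.000641). L1TD1, an RNA-binding protein derived from a LINE-1 element, had 21 and 31 counts against 23 and 41 and was not called.

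Among the genes with the largest falls was MIR302CHG, the host transcript of the miR-302 and miR-367 cluster (chromosome 4, 112646719 through 112648740, minus strand, GRCh38). These microRNAs are abundant in pluripotent cells, where they target cell cycle and signalling genes. The host had 551 and 420 counts in hPSC and 0 in both mesoderm libraries, at least 152-fold lower (adjusted p 1.14e-07). In ectoderm it had 720 and 459 counts and in endoderm 363 and 307, and mesoderm was lower than either (adjusted p 1.33e-07 against ectoderm and 5.55e-08 against endoderm). The count is of the host RNA, and the mature microRNAs were not measured. Their sequences are shown because 4 of the 5 share 1 seed, and that seed, bases 2 to 8, is in capitals (RefSeq, GRCh38.p14).
hsa-miR-302a-3p: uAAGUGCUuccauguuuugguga
hsa-miR-302b-3p: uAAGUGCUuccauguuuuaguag
hsa-miR-302c-3p: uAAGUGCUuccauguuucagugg
hsa-miR-302d-3p: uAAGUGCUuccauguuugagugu
hsa-miR-367-3p: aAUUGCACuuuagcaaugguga

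Genes of the BMP pathway were higher, mainly its inhibitors and targets. Of 36 tested members 26 were higher and 1 lower, against 17% and 17.9% of all genes, with a median log2 fold change of 2.35 with genes at 0 in hPSC taken at their bound. With each library left out, 29, 24, 21 and 21 were higher. The summed level of the list was 1321 and 1107 CPM in hPSC and 7652 and 7975 CPM in mesoderm. Because BMP4 protein was in the medium, the RNA level of BMP4 is a measure of the cells' own transcription.

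The ligand BMP4 itself (chromosome 14, 53949736 through 53956825) had 3 and 5 counts in hPSC and 165 and 125 in mesoderm, a log2 fold change of 4.98 ± 0.48 (adjusted p 2.1e-06). The ectoderm libraries had 51 and 33 and the endoderm libraries 36 and 16, and mesoderm was higher than either (adjusted p 1.25e-05 and 0.000327). GDF6, another BMP family ligand, had 1 and 0 counts against 34 and 54, 91.9-fold higher (interval 16.1 to 3672). SMAD9, a receptor-activated SMAD, had 0 counts in hPSC and 10 and 11 in mesoderm, at least 3.52-fold higher. SMAD1, which shares that role, had 14 and 8 counts against 12 and 26 and was not called, and neither was the receptor BMPR1A, with 64 and 17 against 68 and 79.

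Of 11 tested inhibitors of the pathway 9 were higher, and 9, 9, 6 and 6 with each library left out. BAMBI, a receptor-like protein without a kinase that blocks BMP and TGF-beta signalling, had 17 and 2 counts in hPSC and 407 and 360 in mesoderm (5.18 ± 0.51, adjusted p 2.82e-06). The secreted BMP-binding proteins NOG (noggin) and CHRD (chordin) had 0 counts in hPSC, and 15 and 11, and 10 and 11, in mesoderm, at least 4.33-fold and 3.52-fold higher. FST (follistatin), which binds Activin and BMPs, had 3 and 0 counts against 48 and 44, 32.0-fold higher (interval 10.6 to 158). FSTL1, a secreted follistatin-like protein, had 271 and 297 counts against 1504 and 1431 (2.19 ± 0.33, adjusted p 0.00014). SMURF2, a ubiquitin ligase that acts on SMADs and receptors, had 5 and 4 counts against 31 and 30 (2.57 ± 0.44, adjusted p 0.00042). Both mesoderm libraries lay above both hPSC libraries for each of these 6 inhibitors.

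Targets showed the widest changes of the list, with 11 of 12 tested members higher and 1 lower and a median of 5.74 with bounds. The 11 stood at 11 with each library left out. The ID proteins, which lack a DNA-binding domain and hold back basic helix-loop-helix factors, did not move as one. ID1 had 13 and 7 counts against 53 and 73 (2.49 ± 0.39, adjusted p 0.000182), ID2 had 3 and 10 against 58 and 102 (3.43 ± 0.50, adjusted p 0.000102), and ID4 had 4 and 0 against 150 and 120 (5.86 ± 0.57, adjusted p 3.3e-06). ID3 had 169 and 209 counts against 122 and 123 (-0.81 ± 0.29, adjusted p 0.0444), both mesoderm libraries below both hPSC libraries, a call that was lost in several alternatives and with a log2 fold change of 0.02 once a length trend was removed. MSX2, a homeobox repressor, had 2 and 0 counts against 186 and 153, 177-fold higher (interval 48.6 to 1468), and HEY1, a repressor also induced by NOTCH, had 1 and 0 against 113 and 120, 243-fold higher (interval 43.3 to 9656). GATA3 (chromosome 10, 8054671 through 8075198) and TFAP2A, transcription factors of trophoblast and surface ectoderm, had 0 counts in hPSC. Mesoderm had 179 and 158 counts of GATA3 and 136 and 166 of TFAP2A, at least 56.3-fold and 50.7-fold higher.

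**Figure D1:**
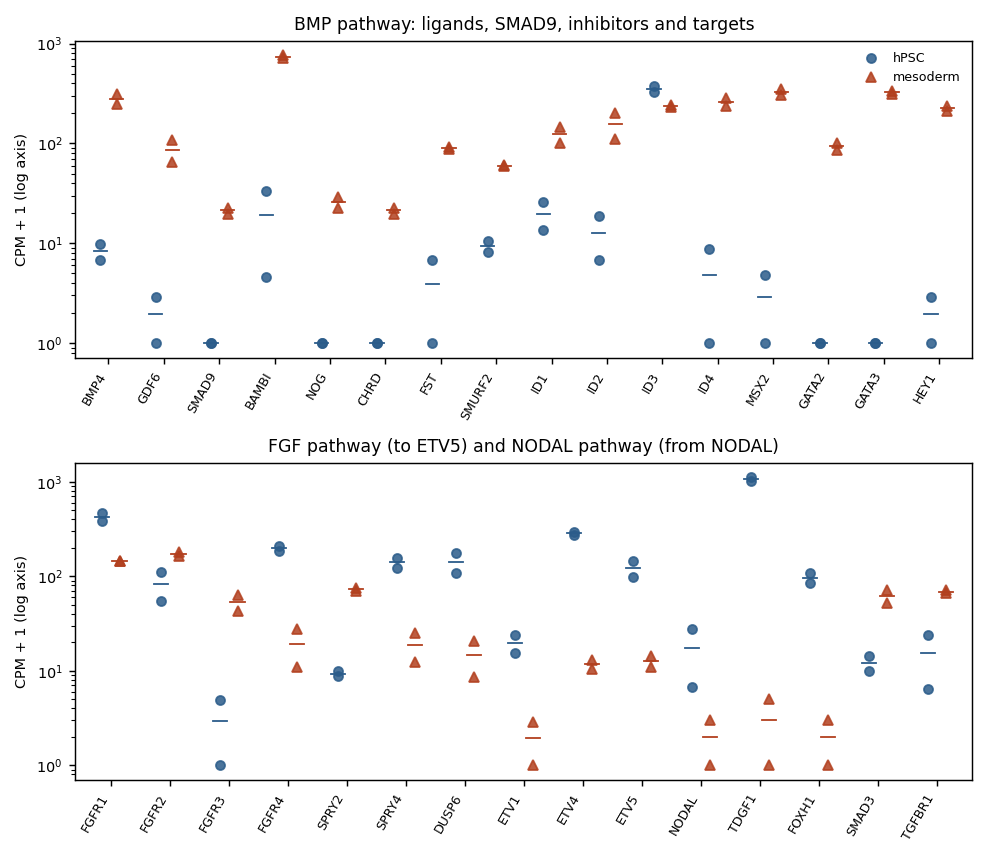
CPM + 1 on a log axis for BMP pathway genes (upper panel) and FGF and NODAL pathway genes (lower panel) in each of the 2 hPSC libraries (circles) and 2 mesoderm libraries (triangles), with the group mean as a short line. In the upper panel the triangles lie above the circles except for ID3, and in the lower panel DUSP6, ETV4, ETV5, SPRY4, FGFR4, TDGF1 and FOXH1 lie lower in mesoderm.

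FGF pathway genes moved mostly the other way. The mesoderm medium held bFGF, and the growth factors of the hPSC medium are not listed here, so an effect of added FGF was not tested. Of 19 tested, 10 were lower and 3 higher (10, 10, 9 and 7 lower with each library left out), with a median of -2.08. Among feedback inhibitors and targets of the ERK branch 7 of 12 were lower and 2 higher. ETV4 (chromosome 17, 43527840 through 43546340), an ETS factor induced by FGF, had 153 and 153 counts in hPSC and 5 and 6 in mesoderm (-4.94 ± 0.42, adjusted p 5.9e-07). Its relative ETV5 had 75 and 54 against 7 and 5 (-3.56 ± 0.39, adjusted p 8.58e-06). DUSP6, a phosphatase that inactivates ERK, had 56 and 98 counts against 4 and 10 (-3.63 ± 0.50, adjusted p 6.55e-05), and the inhibitor SPRY4 had 63 and 88 against 6 and 12 (-3.23 ± 0.42, adjusted p 3.65e-05). SPRY2, of the same family, rose from 4 and 5 to 39 and 35 (2.85 ± 0.48, adjusted p 0.000394), so the Sprouty genes did not share a direction.

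The FGF receptors also differed in direction. FGFR4 had 109 and 104 counts in hPSC and 14 and 5 in mesoderm (-3.65 ± 0.42, adjusted p 1.18e-05), and FGFR1 had 241 and 216 against 76 and 72 (-1.79 ± 0.33, adjusted p 0.000767). FGFR3 had 2 and 0 against 33 and 21, 28.2-fold higher (interval 7.44 to 239). FGFR2, with 57 and 30 against 87 and 90, was not called.

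In the NODAL and Activin pathway 6 of 15 tested members were lower and 2 higher, and 5, 4, 2 and 2 were lower with each library left out. FOXH1, the DNA-binding partner of SMAD2 and SMAD3, had 55 and 47 counts in hPSC and 0 and 1 in mesoderm, 97.6-fold lower (interval 17.1 to 3893). TGFBR1, a receptor kinase for TGF-beta, rose from 12 and 3 counts to 37 and 33 (2.06 ± 0.47, adjusted p 0.00332). Of 10 tested TGF-beta ligands, carriers and targets 4 were higher, none lower and 6 not called (8, 5, 4 and 3 higher with each library left out). LTBP1, which holds latent TGF-beta in the matrix, had 9 and 7 counts against 32 and 39 (1.98 ± 0.39, adjusted p 0.00129). The TGF-beta target TGFBI, a matrix adhesion protein, had 4 and 5 counts against 386 and 504 (6.44 ± 0.42, adjusted p 1.14e-07).

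Hippo pathway genes, whose core kinases restrain the coactivators YAP and TAZ, rose as a group. Of 20 tested, 15 were higher and none lower, with a median of 1.81, and 16, 13, 11 and 11 were higher with each library left out. DESeq2 called 10 of them. WWTR1, which encodes TAZ, had 9 and 3 counts in hPSC and 44 and 56 in mesoderm (2.89 ± 0.45, adjusted p 0.000183), and TEAD3, a DNA-binding partner of YAP and TAZ, had 37 and 28 against 129 and 117 (1.76 ± 0.31, adjusted p 0.000478). The angiomotins, which bind YAP at junctions, were all higher. AMOT had 1 and 1 counts against 38 and 43, 42.3-fold (interval 11.3 to 355), AMOTL1 had 17 and 14 against 80 and 61 (2.01 ± 0.35, adjusted p 0.000471), and AMOTL2 had 69 and 49 against 285 and 295 (2.14 ± 0.31, adjusted p 8.82e-05). Of the YAP targets, ANKRD1 had 0 counts in hPSC and 20 and 29 in mesoderm, at least 8.24-fold higher, and AXL, a receptor tyrosine kinase, had 30 and 23 against 115 and 101 (1.86 ± 0.31, adjusted p 0.000365). The usual targets CCN1 (111 and 36 against 150 and 147) and CCN2 (184 and 5 against 117 and 115) were not called, with hPSC repeat 1 far above repeat 2.

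WNT pathway genes split, with 11 of 31 tested higher and 5 lower, and 12, 8, 6 and 8 higher with each library left out. The ligand WNT6 had 0 counts in hPSC and 70 and 69 in mesoderm, at least 23.3-fold higher, and WNT11 had 1 and 0 against 16 and 18, 35.5-fold higher (interval 5.96 to 1444). LEF1, a nuclear partner of beta-catenin, had 0 counts in hPSC and 14 and 16 in mesoderm, at least 5.03-fold higher. The secreted antagonist SFRP2 fell from 317 and 167 counts to 7 and 3 (-5.71 ± 0.47, adjusted p 4.93e-07), while DKK3, a Dickkopf family protein, rose from 32 and 11 to 96 and 72 (1.82 ± 0.40, adjusted p 0.00279). The receptors FZD6 and FZD7 moved apart. FZD6 had 5 and 1 counts against 29 and 33 (3.17 ± 0.57, adjusted p 0.000604) and FZD7 had 34 and 27 against 8 and 1 (-2.90 ± 0.55, adjusted p 0.001). AXIN2, a direct target of WNT signalling, had 5 and 6 against 3 and 1 and was not called.

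Smaller pathways held single large changes. The Hedgehog coreceptors CDON, BOC and GAS1 were higher. CDON had 7 and 6 counts against 63 and 53 (2.98 ± 0.39, adjusted p 4.1e-05), BOC had 6 and 1 against 46 and 40 (3.43 ± 0.53, adjusted p 0.000168), and GAS1 had 2 and 0 against 25 and 28, 27.7-fold (interval 7.30 to 235). In the retinoid list, with 3 of 13 tested higher and 3 lower (3, 1, 1 and 1 higher and 3, 3, 1 and 1 lower with each library left out), the receptor RARB had 1 and 0 counts against 36 and 35, 74.2-fold higher (interval 12.9 to 2971), and the retinoic acid binding protein CRABP1, with 62 and 76 counts in hPSC, had none in mesoderm, at least 21.4-fold lower. The only HOX gene tested, HOXB2, had 0 counts in hPSC and 31 and 31 in mesoderm, at least 10.4-fold higher, and the HOX cofactors MEIS1 and MEIS2 went from 0 to 35 and 28, and to 20 and 27 counts.

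In the insulin-like growth factor axis 6 of 14 tested genes were higher and 3 lower (8, 6, 5 and 6 higher and 2, 2, 1 and 1 lower with each library left out). IGFBP3 (chromosome 7, 45912243 through 45921272), which binds IGF in the circulation and outside cells, had 6 and 0 counts in hPSC and 587 and 655 in mesoderm (7.50 ± 0.58, adjusted p 4.84e-07), and 14 and 8 in ectoderm and 0 in endoderm. IGFBP7 had 1 and 0 counts against 204 and 349, 578-fold higher (interval 103 to 22862), and IGFBP5 had 0 against 36 and 39, at least 12.6-fold higher. PAPPA2, a protease that cuts IGF binding proteins, had 0 counts in hPSC and 93 and 70 in mesoderm, at least 27.2-fold higher. The ligand IGF2 had 0 and 1 counts against 17 and 20, 38.7-fold higher (interval 6.52 to 1568). The receptor IGF1R, with 37 and 52 against 72 and 52, was not called, and its groups overlapped.

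VEGF was part of the medium, and its main receptor KDR, with 57 and 44 counts in hPSC, had 1 and 1 in mesoderm. The coreceptor NRP1, which binds VEGF and semaphorins, went from 1 and 2 counts to 49 and 38, 30.3-fold higher (interval 10.0 to 150). PGF, placental growth factor, a VEGF family ligand, had 6 and 4 counts against 44 and 35 (2.80 ± 0.43, adjusted p 0.000151). EPAS1 (chromosome 2, 46297407 through 46386697), the hypoxia-inducible factor HIF-2 alpha, was among the 10 genes with the highest fold. It had 2 and 5 counts in hPSC, 873 and 842 in mesoderm (7.73 ± 0.47, adjusted p 1.14e-07), 3 and 3 in ectoderm and 3 and 1 in endoderm, so that only the mesoderm libraries exceeded 5 counts. TGM2, an enzyme that crosslinks matrix proteins, had 1 and 0 counts against 186 and 188, 391-fold higher (interval 69.7 to 15475).

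Axon guidance genes, which steer many migrating cells besides neurons, had 13 of 33 tested higher and 5 lower (14, 12, 11 and 12 higher with each library left out). SLIT3, a secreted repellent, had 6 and 3 counts against 148 and 144 (4.83 ± 0.47, adjusted p 2.48e-06), and EFNA1, a membrane-anchored ephrin, had 6 and 5 against 153 and 154 (4.62 ± 0.38, adjusted p 5.49e-07). The semaphorin SEMA3C had 0 counts in hPSC and 19 and 37 in mesoderm, at least 9.45-fold higher. UNC5C, a netrin receptor, had 0 and 1 against 30 and 33, 65.8-fold higher (interval 11.4 to 2641). EPHB2, an ephrin receptor with 8 and 13 counts in hPSC, had 0 in both mesoderm libraries, at least 3.24-fold lower.

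**Figure D2:**
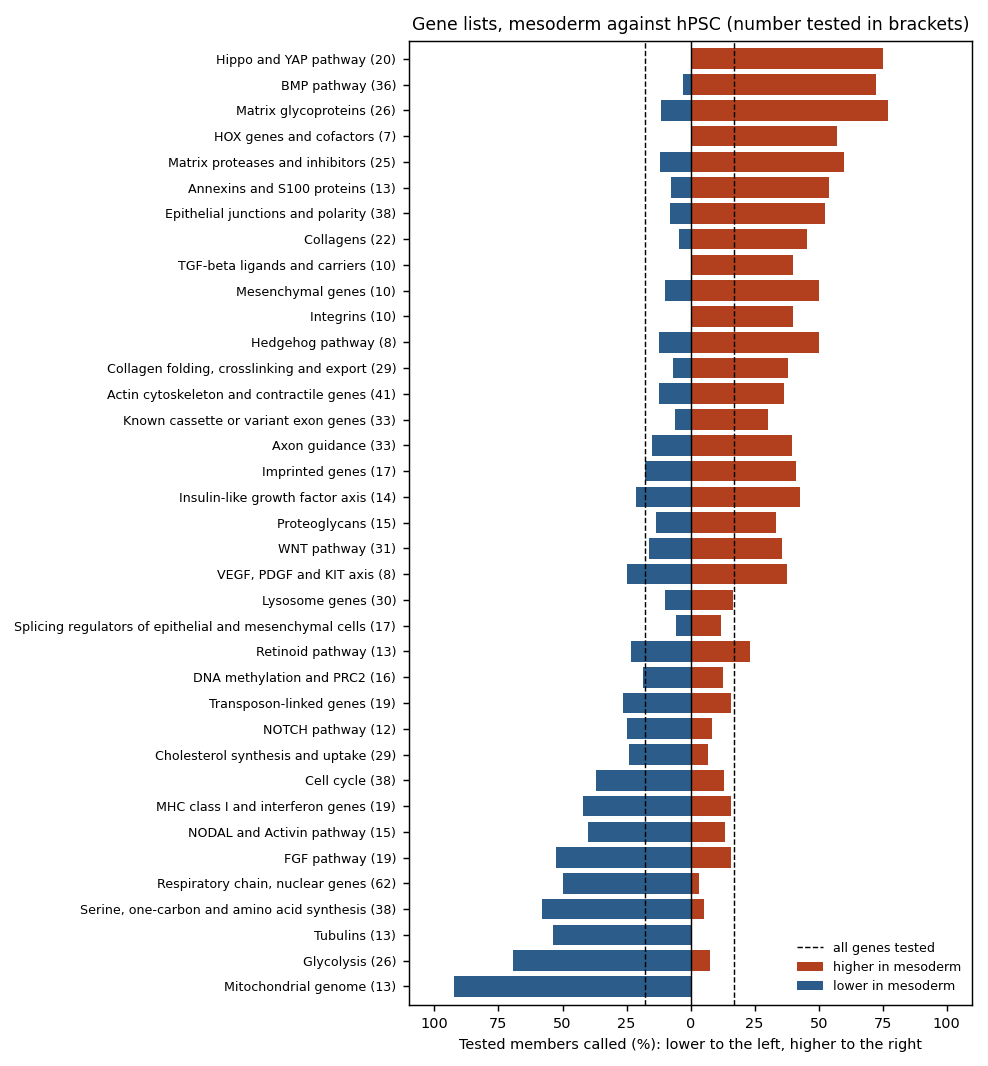
For the gene lists other than cell type markers with at least 7 tested members, share of the tested members called higher in mesoderm (bars to the right) and lower (bars to the left), with the number tested in brackets and the shares among all 10525 genes as dashed lines (17% and 17.9%). Among these lists matrix glycoprotein, Hippo and BMP genes extend farthest to the right, and mitochondrial genome, glycolysis and serine pathway genes farthest to the left.

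Extracellular matrix glycoproteins rose from 2034 and 1872 CPM in sum in hPSC to 20405 and 20767 CPM in mesoderm. Of 26 tested, 20 were higher and 3 lower, with a median of 2.36, and 19, 20, 17 and 18 were higher with each library left out. FN1 (fibronectin, chromosome 2, 215360440 through 215436073), which links integrins to collagen, had 49 and 66 counts in hPSC and 5902 and 5528 in mesoderm (6.45 ± 0.42, adjusted p 1.14e-07). It had 80 and 64 in ectoderm and 555 and 472 in endoderm, and mesoderm was higher than both (adjusted p 3.74e-08 and 8.85e-06). SPARC, or osteonectin, a secreted protein that binds collagen, had 255 and 349 against 1606 and 1720 (2.28 ± 0.34, adjusted p 0.000127). Among basement membrane proteins LAMB1, a laminin chain, had 13 and 19 against 292 and 289 (4.0 ± 0.36, adjusted p 1.21e-06). The nidogens, which link laminin to collagen IV, moved in opposite directions. NID2 rose from 9 and 5 to 125 and 112 (3.90 ± 0.39, adjusted p 3.22e-06) and NID1 fell from 37 and 41 to 10 and 5 (-2.54 ± 0.42, adjusted p 0.000347).

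Fibrillar collagens were higher in 5 of 7 tested members, also with any library left out, and summed to 458 and 416 CPM against 5615 and 6149 CPM. COL3A1 (chromosome 2, 188974373 through 189012743), the chain of type III collagen, had 0 and 1 counts in hPSC and 549 and 456 in mesoderm, 1050-fold higher (interval 188 to 41516), with 1 and 0 counts in ectoderm and 0 in endoderm. COL5A1, a type V chain that starts fibrils, had 4 and 4 against 148 and 125 (4.89 ± 0.41, adjusted p 6.24e-07), and COL1A2 had 66 and 102 against 562 and 460 (2.41 ± 0.33, adjusted p 5.94e-05). COL2A1, the cartilage collagen, had 13 and 12 against 11 and 15 and was not called. Of the 5 tested basement membrane collagens 1 was higher (3 without hPSC repeat 1), COL4A5, with 5 and 10 counts against 38 and 45 (2.28 ± 0.43, adjusted p 0.000816).

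Of 29 tested genes that fold, crosslink and export collagen 11 were higher and 2 lower, and 15, 8, 6 and 4 were higher with each library left out. LOXL2, a lysyl oxidase that crosslinks collagen, had 104 and 77 counts against 735 and 684 (2.81 ± 0.30, adjusted p 6.72e-06), but its relative LOXL3 fell from 25 and 40 to 4 and 0 (-4.14 ± 0.65, adjusted p 0.000205). SERPINH1, the collagen chaperone HSP47, had 402 and 292 counts against 248 and 246 and was not called, and neither was P4HB, a subunit of prolyl hydroxylase, with 546 and 339 against 810 and 831. Of 15 tested proteoglycans and their partners 5 were higher and 2 lower (8, 6, 5 and 4 higher and 1, 4, 1 and 1 lower with each library left out). HAPLN1, which ties hyaluronan to its partners, had 1 and 0 counts against 124 and 150, 286-fold higher (interval 51.0 to 11348), and its partner VCAN (versican) fell from 16 and 18 to 0 and 3, 10.8-fold lower (interval 3.41 to 55.2).

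Matrix proteases and their inhibitors had 15 of 25 tested members higher and 3 lower (16, 13, 12 and 9 higher with each library left out). MMP2, a gelatinase, had 52 and 36 counts against 328 and 275 (2.62 ± 0.31, adjusted p 1.83e-05), and TIMP3, a matrix-bound inhibitor of metalloproteases, had 14 and 2 against 381 and 289 (5.23 ± 0.49, adjusted p 1.71e-06). CTSB, a lysosomal and secreted cathepsin, had 56 and 88 against 407 and 400 (2.30 ± 0.34, adjusted p 0.00011), and CTSC, of the same family, fell from 140 and 127 to 12 and 13 (-3.57 ± 0.35, adjusted p 2.48e-06). The ADAMTS family of secreted metalloproteases had 6 of 10 tested genes higher and 3 lower (6, 6, 6 and 3 higher with each library left out), and ADAMTS18 had 0 counts in hPSC and 57 and 63 in mesoderm, at least 20.1-fold higher.

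Epithelial genes were higher in the same libraries. Of 38 tested junction and polarity genes 20 were higher and 3 lower, with a median of 1.20, and 22, 19, 17 and 17 were higher with each library left out. All 7 tested desmosome genes were higher, as they were with any library left out, while DESeq2 called 6. DSP (desmoplakin, chromosome 6, 7541468 through 7586572), which ties desmosomes to keratin, had 28 and 16 counts in hPSC and 318 and 354 in mesoderm (3.78 ± 0.34, adjusted p 1.25e-06). PKP2, plakophilin 2, had 31 and 16 against 494 and 505 (4.26 ± 0.36, adjusted p 6.75e-07), with 129 and 144 in ectoderm and 63 and 69 in endoderm. The 4 tested keratins, KRT7, KRT8, KRT18 and KRT19, were all higher. KRT19 had 68 and 66 counts against 727 and 1026 (3.55 ± 0.35, adjusted p 3.05e-06), and KRT18 had 306 and 355 against 2245 and 2340 (2.62 ± 0.34, adjusted p 4.28e-05).

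CDH1, E-cadherin, the main adhesion protein of epithelia, had 360 and 286 counts in hPSC and 818 and 862 in mesoderm (1.22 ± 0.29, adjusted p 0.00435). CDH2, N-cadherin, had 13 and 13 against 8 and 6 and was not called. Of 10 tested genes known for mesenchymal cells 5 were higher, 1 lower and 4 not called, with a median of 2.46. SNAI2, a repressor of epithelial genes, had 0 counts in hPSC and 42 and 26 in mesoderm, at least 11.3-fold higher, and VIM (vimentin) had 34 and 29 against 113 and 155 (1.93 ± 0.34, adjusted p 0.000597). SNAI1 had 7 and 9 against 5 and 4, and ZEB2 had 0 against 1 and 1, neither of them called. THY1, a surface glycoprotein of fibroblasts and of pluripotent cells, fell from 205 and 377 to 26 and 18 (-3.92 ± 0.43, adjusted p 7.16e-06). E-cadherin and keratins thus stood beside fibronectin, vimentin and fibrillar collagens in the same libraries, and whether the same cells held both was not measured.

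Tubulins were lower, and actin-associated genes were mixed. Of 13 tested tubulins 7 were lower and none higher, with a median of -1.20 (9, 7, 6 and 6 lower with each library left out). TUBB2B (chromosome 6, 3224258 through 3227653) had 278 and 306 counts against 31 and 25 (-3.56 ± 0.35, adjusted p 2.53e-06) and TUBB3, a tubulin of neurons, had 122 and 188 against 19 and 16 (-3.33 ± 0.39, adjusted p 1.39e-05). TUBA1A, with 199 and 314 against 259 and 317, was not called. Of 41 actin and contractile genes 15 were higher and 5 lower, and 14, 21, 13 and 11 were higher with each library left out, with 10, 3, 2 and 3 lower. Of the 5 tested actins themselves 2 were higher and 1 lower. TPM1, a tropomyosin, had 94 and 76 against 687 and 1057 (3.20 ± 0.34, adjusted p 5.95e-06), FLNC, a filamin of muscle, had 3 and 8 against 100 and 85 (3.87 ± 0.43, adjusted p 9.38e-06), and VCL (vinculin), which links integrins to actin, fell from 260 and 327 to 106 and 118 (-1.57 ± 0.32, adjusted p 0.00159). Of 13 tested annexins and S100 proteins 7 were higher and 1 lower. ANXA1, a calcium-dependent membrane-binding protein, had 0 counts in hPSC and 265 and 292 in mesoderm, at least 93.3-fold higher.

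**Figure D3:**
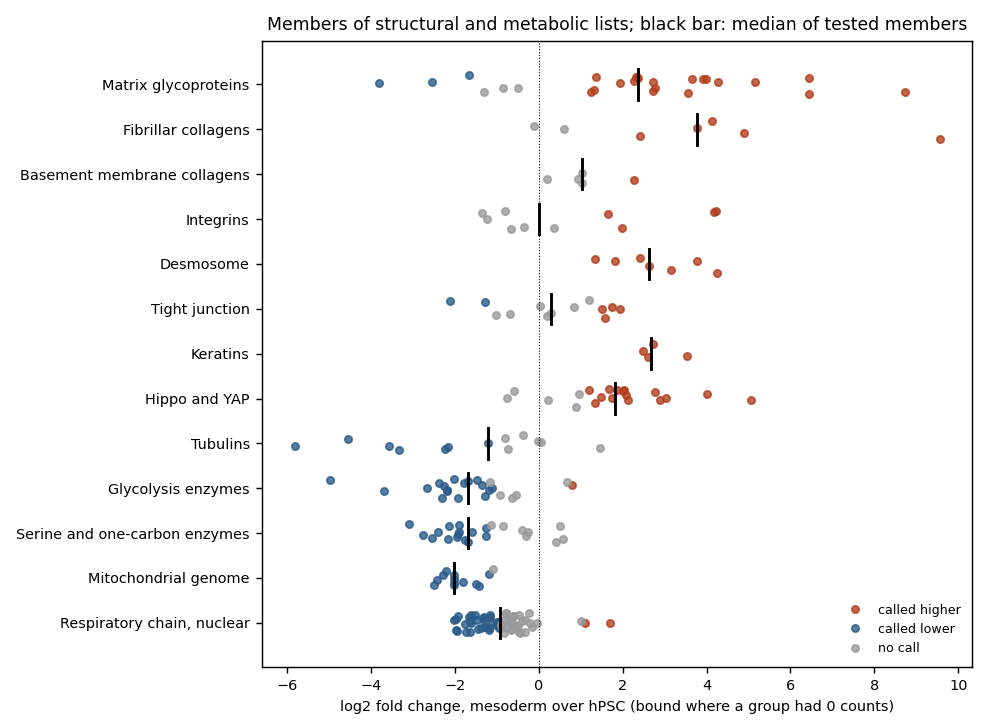
Log2 fold change of mesoderm over hPSC for each tested member of 13 structural and metabolic lists, with genes at 0 counts in a group at their bound, called genes in colour and the median as a black bar. Desmosome genes and keratins lie to the right of 0 without exception, and tubulin, glycolysis, serine and mitochondrial genes lie mostly to the left.

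Glycolysis genes were lower as a group. Of 23 tested enzymes 17 were lower and 1 higher, with a median of -1.69, and 17, 17, 12 and 12 were lower with each library left out. Their summed level was 21881 and 32556 CPM in hPSC and 9968 and 9967 CPM in mesoderm, and 17 were also lower with a length trend removed. PGAM1 (chromosome 10, 97426191 through 97433444), phosphoglycerate mutase, had 1073 and 1188 counts against 191 and 211 (-2.67 ± 0.35, adjusted p 3.93e-05). TPI1, triosephosphate isomerase, had 1113 and 1686 against 308 and 357 (-2.26 ± 0.36, adjusted p 0.000207), and LDHA, which turns pyruvate into lactate, had 319 and 588 against 105 and 107 (-2.30 ± 0.38, adjusted p 0.00028). ENO2, the enolase of neurons, fell most among them, from 50 and 67 to 1 and 3 (-4.98 ± 0.53, adjusted p 5.58e-06).

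The transporters at either end of the pathway did not follow together. SLC2A3 (chromosome 12, 7919217 through 7936187), the glucose transporter GLUT3, rose from 637 and 985 counts to 4229 and 4088 (2.16 ± 0.39, adjusted p 0.00063). It had 2821 and 2558 counts in ectoderm and 7786 and 5999 in endoderm, and mesoderm was higher than the first (adjusted p 0.00164) and lower than the second (adjusted p 0.0245). SLC2A1, the glucose transporter GLUT1, had 245 and 273 against 357 and 261 and was not called. SLC16A1, the lactate exporter MCT1, fell from 153 and 159 to 59 and 58 (-1.59 ± 0.30, adjusted p 0.000836).

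Enzymes of serine, one-carbon and amino acid synthesis were also lower. None of 23 tested enzymes was higher and 15 were lower, with a median of -1.68 and summed levels of 5744 and 7770 CPM against 2386 and 2384 CPM. With each library left out 17, 14, 13 and 12 were lower, and 15 with a length trend removed. The serine pathway enzymes PHGDH, PSAT1 and PSPH were all lower. PHGDH, the first of them, had 507 and 866 counts against 177 and 181 (-2.14 ± 0.36, adjusted p 0.00038) and PSAT1 had 195 and 267 against 33 and 29 (-3.08 ± 0.34, adjusted p 9.07e-06). MTHFD2, of the mitochondrial folate cycle, had 153 and 200 against 31 and 45 (-2.39 ± 0.37, adjusted p 0.000154), and ASNS, asparagine synthetase, had 84 and 137 against 21 and 16 (-2.77 ± 0.40, adjusted p 8.94e-05). CHAC1, an enzyme that breaks down glutathione and a target of ATF4, fell from 66 and 143 to 2 and 4 (-5.28 ± 0.57, adjusted p 6.37e-06). Of the amino acid transporters, SLC7A3, which takes up arginine and lysine, fell from 68 and 117 to 4 and 2 (-5.10 ± 0.51, adjusted p 3.25e-06), and SLC38A1, a glutamine carrier, rose from 86 and 69 to 366 and 438 (2.22 ± 0.30, adjusted p 5.03e-05).

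**Figure D4:**
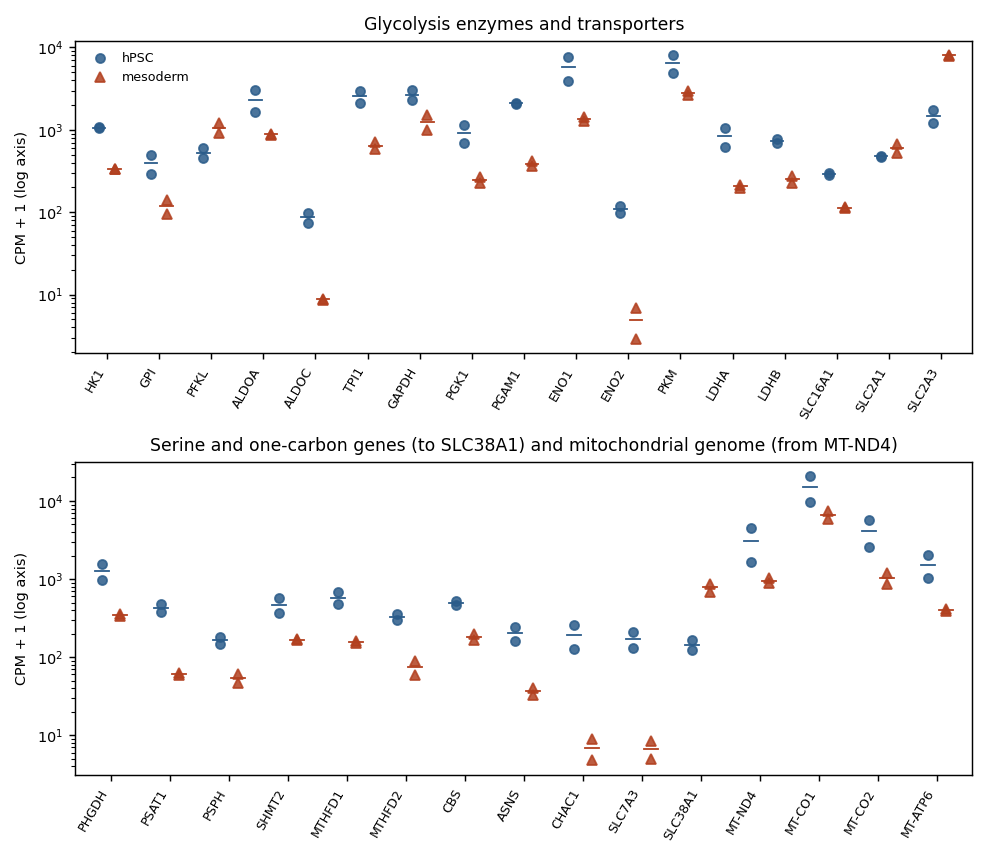
CPM + 1 on a log axis for glycolysis genes (upper panel) and for serine, one-carbon and mitochondrial genome genes (lower panel) in each hPSC library (circles) and mesoderm library (triangles), with group means as short lines. SLC2A3 and SLC38A1 lie higher in mesoderm, and PHGDH, PSAT1, CHAC1, PGAM1, ENO2 and MT-CO2 lie lower.

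Mitochondrial genes were lower as well, but these counts depended on the repeats and on transcript length. Of the 13 mRNAs of the mitochondrial genome 12 were lower, with a median of -2.01, and 13, 7, 6 and 6 with each library left out. They summed to 18733 and 40725 CPM in hPSC and to 10843 and 11982 CPM in mesoderm, so hPSC repeat 2 had the most. MT-CO2, a cytochrome oxidase subunit, had 1320 and 3168 counts against 639 and 437 (-2.28 ± 0.44, adjusted p 0.00114). Of 62 nuclear respiratory chain genes 31 were lower and 2 higher, and 46, 24, 13 and 9 were lower with each library left out. With a trend on transcript length removed from each library, 6 of the 13 and 9 of the 62 were lower. UQCRH, a small complex III subunit, had 75 and 88 counts against 22 and 25 (-1.97 ± 0.33, adjusted p 0.000337), and SDHC, of complex II, had 51 and 87 against 17 and 22 (-2.01 ± 0.40, adjusted p 0.00147).

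Gene families formed by the letters of their symbols showed further falls in the translation machinery. Of the mitochondrial ribosome, 22 of 47 tested MRPL genes and 15 of 28 MRPS genes were lower and none higher. Left out one library at a time, 28, 16, 6 and 4 of the MRPL genes and 19, 11, 4 and 4 of the MRPS genes were lower, and with the length trend removed 8 of each were. MRPL12 had 36 and 30 counts against 9 and 7 (-2.19 ± 0.39, adjusted p 0.000543). Of the cytosolic ribosome, 22 of 52 RPL genes were lower and 1 higher, and 19 of 46 RPS genes lower and 2 higher (30, 17, 5 and 5 of the RPL genes and 26, 20, 7 and 5 of the RPS genes lower with each library left out). Ribosomal proteins have many near-identical pseudogenes, and how shared reads were counted is not given in the sources used here. With the length trend removed 9 RPL genes were lower and 7 higher, and 8 RPS genes were lower and 2 higher. RPL8 had 637 and 795 counts against 199 and 175 (-2.12 ± 0.33, adjusted p 0.000169).

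Of 32 RNA polymerase genes (POLR) 17 were lower and none higher (17, 12, 7 and 4 lower with each library left out, and 10 with the length trend removed). POLR3G, a polymerase III subunit found in pluripotent cells, had 16 and 20 counts against 0 and 2, 17.2-fold lower (interval 4.44 to 148), and POLR1B, of the polymerase that makes ribosomal RNA, had 75 and 113 against 30 and 22 (-2.04 ± 0.37, adjusted p 0.000641). Of 10 HSPA chaperones 5 were lower (2 without mesoderm repeat 1). HSPA2 had 59 and 89 counts against 12 and 9 (-2.99 ± 0.41, adjusted p 5.57e-05). EIF4EBP1, which holds back cap-dependent translation when it is not phosphorylated, had 167 and 125 against 28 and 21 (-2.73 ± 0.34, adjusted p 2.31e-05). Of 53 tested genes of the RAB family of membrane traffic GTPases 10 were higher and 10 lower, near the shares of all genes (15, 9, 3 and 3 higher and 9, 5, 2 and 3 lower with each library left out). RAB17, a GTPase of epithelial recycling, fell from 106 and 111 to 10 and 6 (-3.92 ± 0.39, adjusted p 3.05e-06) and RAB31 rose from 20 and 5 to 206 and 155 (3.70 ± 0.44, adjusted p 1.64e-05).

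Of 29 cholesterol genes 7 were lower and 2 higher, against 17.9% and 17% of all genes (12, 9, 4 and 4 lower with each library left out). HMGCS1, an early enzyme of sterol synthesis, fell from 58 and 50 counts to 12 and 12 (-2.32 ± 0.47, adjusted p 0.00157). Cell cycle genes had 14 of 38 lower and 5 higher, but 20, 12, 6 and 3 lower with each library left out. CDKN2B, a CDK4 and CDK6 inhibitor, had 0 counts in hPSC and 18 and 14 in mesoderm, at least 5.34-fold higher.

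Among 16 tested genes of DNA methylation and Polycomb complex PRC2, 2 were higher and 3 lower, close to the shares of all genes (1, 3, 0 and 0 higher and 5, 2, 2 and 2 lower with each library left out). DNMT3B, a de novo DNA methyltransferase, had 381 and 364 counts against 32 and 26 (-3.85 ± 0.32, adjusted p 5.9e-07), and JARID2, a partner of PRC2, had 117 and 102 against 10 and 12 (-3.47 ± 0.38, adjusted p 7.29e-06). The maintenance methyltransferase DNMT1 (101 and 130 against 105 and 84) and the PRC2 catalytic subunit EZH2 (15 and 8 against 18 and 23) were not called. Of 17 imprinted genes 7 were higher and 3 lower (8, 7, 5 and 4 higher with each library left out, and 4 with the length trend removed). MEST rose from 212 and 193 to 1088 and 1229 (2.35 ± 0.30, adjusted p 3.38e-05), and SNRPN, a splicing protein gene of the Prader-Willi region, fell from 1085 and 2000 to 203 and 196 (-3.15 ± 0.40, adjusted p 3.07e-05).

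Genes of antigen presentation and the interferon response had 8 of 19 tested members lower and 3 higher (9, 7, 7 and 6 lower with each library left out). IFITM1, a membrane protein that blocks virus entry and is high in stem cells, had 267 and 379 counts against 25 and 19 (-4.06 ± 0.37, adjusted p 1.36e-06). It belongs to a family of close copies, whose shared reads are uncertain. HLA-C, with 96 and 90 against 70 and 81, was not called. ESRG, a noncoding RNA driven by an HERVH retroviral element and marking pluripotent cells, had 1158 and 1551 counts in hPSC and 0 and 3 in mesoderm, 864-fold lower (interval 295 to 4194), with 100 and 92 counts in ectoderm and 31 and 12 in endoderm.

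Transcript choice was tested separately, as the share of each transcript among its gene's counts. Of 2601 genes with at least 2 tested transcripts 186 changed (7.15%), by edgeR's diffSpliceDGE at a gene-level adjusted p under 0.05, and 488 had an unadjusted p under 0.05. Without hPSC repeat 1 there were 314, without hPSC repeat 2 150, without mesoderm repeat 1 66 and without mesoderm repeat 2 38. Of the 186, 96 had no call at gene level, 37 were also higher and 53 also lower. Among the 160 with at least 20 counts in each library, the transcript that gained and the transcript that lost most differed in the first exon in 71 genes, in the last exon in 11, and by internal splicing in 128. The gained transcript was the longer of the pair in 102 and the shorter in 58, and removal of a length trend was not run for shares. The 8 genes described next were among the 15 with the largest share differences, and each was called in every alternative that gave a value.

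MEST had the largest difference. Transcript ENST00000223215.10 made up 26.9% and 3.63% of its counts in hPSC and 91.3% and 91.4% in mesoderm, and ENST00000341441.9 fell from 57.5% and 80.8% to 6.99% and 7.16% (adjusted p 9.09e-09). In ectoderm the gained transcript had 68.0% and 69.8%, and in endoderm 0%. The transcripts start at different first exons, at position 130492085 and 130486166 of chromosome 7. The mesoderm transcript opens its reading frame in its own first exon, which is shown for that reason. Its coding bases are in capitals (chr7:130492314-130492339, plus strand, GRCh38, GENCODE 29), and the 20 lower-case bases after them are the start of the next exon, into which the reading frame runs on.
MEST: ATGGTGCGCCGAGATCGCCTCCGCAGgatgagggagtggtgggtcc

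Different first exons also set apart the transcripts of DNMBP, CDYL, CSRNP1, DOK4 and SLC3A2. In DNMBP, a scaffold that joins dynamin to actin regulators, ENST00000324109.9 went from 12.5% and 14.7% to 74.7% and 68.4%, and the shorter ENST00000543621.6 from 60.0% and 66.2% to 13.9% and 13.9% (adjusted p 0.000129), with no call for the gene as a whole. In CDYL, a chromodomain protein of repressive chromatin, ENST00000397588.8 rose from 6.98% and 15.4% to 63.9% and 48.8% (adjusted p 0.000136). CSRNP1, a nuclear protein, and DOK4, an adaptor of receptor tyrosine kinases, were also higher as genes. The gained transcript of DOK4 took 59.1% and 16.7% of its counts in hPSC, where the repeats differed, and 89.2% and 93.3% in mesoderm (adjusted p 0.00057).

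SLC3A2, the heavy chain shared by several amino acid transporters, had 390 and 519 counts in hPSC and 331 and 268 in mesoderm, with no gene-level call. Its transcript ENST00000377891.6 fell from 52.1% and 45.5% to 13% and 13.1%, and ENST00000681657.1 rose from 30.8% and 33.9% to 77.3% and 78.4% (adjusted p 0.000129). In ectoderm the latter had 31.0% and 27.7%, near hPSC, and in endoderm 60.3% and 56.5%. The lost transcript starts at position 62856102 of chromosome 11 and the gained one at 62880894.

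In SKP2 and SMPD4 the pairs differed at the end of the transcript or within it, and also in where their overlapping first exons start. The gained and lost transcripts start at 36152107 and 36151966 in SKP2, and at 130182167 and 130181601 in SMPD4. SKP2, the substrate receptor of an SCF ubiquitin ligase that degrades cell cycle inhibitors, had 62 and 68 counts against 118 and 118. ENST00000274254.9 fell from 32.3% and 63.2% to 2.54% and 4.24%, and ENST00000274255.11 rose from 59.7% and 33.8% to 88.1% and 84.7% (adjusted p 2.8e-05). The hPSC repeats disagreed on which was the major transcript, and both mesoderm libraries lay outside the hPSC range. The last exons of the pair start at different positions of chromosome 5, at 36181818 in the gained transcript and farther downstream in the other, so the coding sequences differ at their 3′ ends. The coding part of the gained last exon is shown in capitals after the 20 bases that precede it (chr5:36181818-36182028, plus strand).
SKP2 gained: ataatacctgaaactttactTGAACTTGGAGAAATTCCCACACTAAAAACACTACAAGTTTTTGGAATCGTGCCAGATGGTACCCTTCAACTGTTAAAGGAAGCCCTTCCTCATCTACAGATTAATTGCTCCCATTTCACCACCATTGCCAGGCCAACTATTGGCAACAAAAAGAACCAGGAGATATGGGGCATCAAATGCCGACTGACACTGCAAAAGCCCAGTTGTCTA

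SMPD4, a sphingomyelinase of the endoplasmic reticulum and nuclear envelope, had 113 and 111 counts against 70 and 71. ENST00000409031.5 rose from 12.4% and 7.21% to 51.4% and 54.9%, and ENST00000351288.10 fell from 81.4% and 83.8% to 37.1% and 39.4% (adjusted p 7.46e-05). The gained transcript had 11.2% and 14.3% in ectoderm and 19.2% and 20.5% in endoderm, so the mesoderm libraries were the highest of the 8. It contains an exon of 87 bases, exon 11 of 20, which the lost transcript lacks (chr2:130161186-130161272, minus strand, in capitals, with 20 bases of the exon on either side in lower case).
SMPD4: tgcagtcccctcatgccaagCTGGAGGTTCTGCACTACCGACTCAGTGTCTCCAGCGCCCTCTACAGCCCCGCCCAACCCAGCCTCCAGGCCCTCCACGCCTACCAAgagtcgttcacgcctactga

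**Figure D5:**
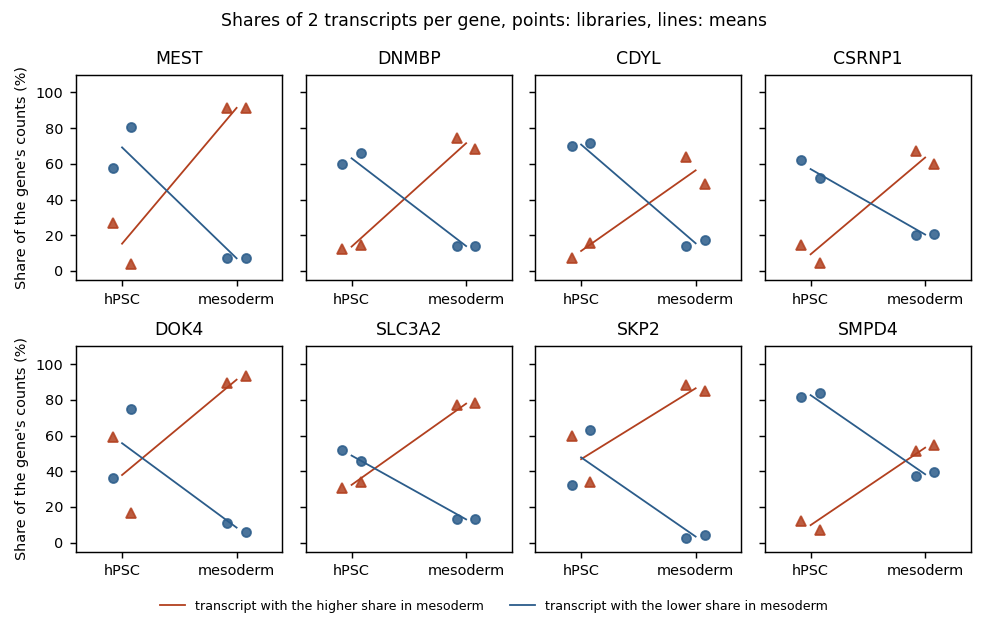
Share of the gene's counts (%) taken by the transcript that gained most in mesoderm (triangles) and the transcript that lost most (circles) in each library of 8 genes, with lines through the group means. In every gene drawn the triangles lie above the circles in both mesoderm libraries, while in SKP2 the gained transcript already had 59.7% in hPSC repeat 1 and 33.8% in repeat 2.

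The list of genes with known cassette or variant exons included some whose exons differ between epithelial and mesenchymal cells. Of its 23 tested members 3 had changed transcript shares, KIF1B, TPM1 and ACTN1, against 7.15% of all genes tested. Each call was lost when a mesoderm library was left out. The test is of all transcripts of a gene and not of the known exon, and in TPM1 and ACTN1 the transcripts that gained and lost most also started at different first exons. Transcript shares of FN1 (adjusted p 0.889), CTNND1 (0.735) and FGFR1 (1.0) were not called. Of 17 tested splicing regulators of these cell types 2 were higher and 1 lower (7 higher without hPSC repeat 1). MBNL2, a muscleblind splicing factor, had 1 and 1 counts against 47 and 52, 51.7-fold higher (interval 13.9 to 433), while the epithelial regulator ESRP1 had 66 and 100 against 92 and 96 and was not called.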

How the data were processed

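RNA of 8 libraries was read with PacBio. The authors deposited raw read counts per transcript of 1 assembly merged over all libraries. All 8 deposited columns hold whole counts with different totals. The endoderm columns were read like the others, and expected counts, the unit under which they were recorded, needed no rounding of the deposited values. minimap2, StringTie and GRCh38 are named in the submitters' processing notes, without versions, and the handling of strand and of reads shared between near-identical copies is not given in the sources used here.

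Of 96614 transcripts, the 85024 with a gene name were summed per gene, and the others (9847 listed under a gene without a name, 1743 with no reference gene) were left out. Genes were tested with edgeR 4.0.16 (TMM scaling, filterByExpr with a minimum count of 10, 1 quasi-likelihood fit over the 8 libraries), and transcript shares with diffSpliceDGE, which tests genes with at least 2 transcripts past the same filter. The length trend is a smooth curve of log count on transcript length, removed from each library by offsets. Named genes were list members, the 10 highest and 10 lowest folds (each higher library at 10 CPM or more), the 10 that gained or lost most CPM, leaders of symbol families, and the 15 largest share differences with 20 counts in each library. The members and lists were chosen with earlier results of these data known. A gene with no transcript in the assembly was not analysed here, and some list members are counted but not reported here by name.

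Tested on simulated data with 200 genes changed 4-fold, the gene test recovered 75.5% of them, with 6.21% of calls false (9520 genes tested). The share test was given 200 genes with changed transcript shares and recovered 100%, with 2.91% false (1954 genes tested). A changed share is not a 4-fold change of a gene, so these recoveries are not comparable. Recovery of share changes smaller than those simulated was not tested. The simulation gave each gene the same spread in all libraries, and it changed far fewer genes than were called in the data. In the data the chi-square over its degrees of freedom was 7.77 in hPSC and from 1.62 to 2.44 in the other groups. Whether the false shares hold with such hPSC repeats was not tested. Alternatives were DESeq2 1.42.0, other scaling and filters, the 4 libraries alone, a repeat block, the length trend, reference transcripts only, Simes p for shares, and each library left out.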

Additional observations from a re-analysis of the deposited data

How the results depend on the processing

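Of the 3668 genes called, 3478 were at least 2-fold apart. DESeq2 called 2236 (2184 at least 2-fold), a fit of the 4 libraries alone 2290 (2290), and a minimum count of 30 called 2231 at least 2-fold. Leaving out 1 library gave 1909 to 4958 genes (1909 to 4538 at least 2-fold), most without hPSC repeat 1 and fewest without mesoderm repeat 2. Without hPSC repeat 1 the median of all genes was 0.10 on the log2 scale, against 0.01 with it. For transcript shares, 186 calls became 77 with Simes p, 76 with a minimum count of 30, 76 with the 4 libraries alone, 117 with reference transcripts only and 38 to 314 with 1 library left out. Over all gene lists 433 members were called (288 to 535 with 1 library left out). Over the symbol families 930 genes were called, against 501 with DESeq2, 578 with a minimum count of 30, 497 with the 4 libraries alone and 390 to 1268 with 1 library left out. Of single groups, DESeq2 called 6 WNT genes (11 in edgeR) and 3 collagen processing genes (11) higher, 3 ADAMTS genes (6) higher, 7 MRPL genes (22 in edgeR), 7 MRPS genes (15) and 11 POLR genes (17) lower. The cause was not tested.

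Of 158 called genes that the text names, 156 were past the threshold in every alternative that gave a value. The exceptions were ID3 and, as a gene, SMPD4. MT-CO1, given below, is not counted in the 158, and it was not called with the length trend removed. The 158 genes were chosen for the text, so that share does not stand for all genes called. With the 4 libraries alone, 35 of the 38 genes picked by fold or by CPM were called in the same direction. With the length trend removed 37 were, and MT-CO1 had an adjusted p of 0.0746 in that edgeR fit. Among the named genes called in either fit, the sign turned for ID3 (0.016 with the length trend removed) and for CDYL. CDYL was not called in the main fit, and was called higher, at 2.12, with reference transcripts only. That fit leaves out a CDYL transcript that does not match the reference and held 69.8% and 71.8% of its hPSC counts. The labels do not say whether libraries with the same repeat number belong together. The deviations of same-numbered hPSC and mesoderm repeats correlated at -0.03 over genes. Other pairs of groups ranged from -0.04 (endoderm and mesoderm) to 0.15 (hPSC and endoderm). A fit with the repeat number as a block called 3478 genes, 3368 at least 2-fold, 139 genes for shares, 422 list members, 850 family members and 57 cell type markers. At these depths a gene needed about 3 counts in a library to be told from 0.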

Other observations

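Further gene groups and single genes of the comparison of mesoderm with hPSC are given here. Of 10 tested integrins 4 were higher and none lower, among them ITGAV, a fibronectin receptor subunit, with 1 and 2 counts in hPSC and 34 and 33 in mesoderm, 23.3-fold higher (interval 7.65 to 116), and ITGB1, the common beta subunit, with 82 and 22 against 212 and 237 (1.99 ± 0.40, adjusted p 0.00158). Of 12 tested NOTCH pathway genes 1 was higher and 3 lower (1 lower with either mesoderm library left out). MFNG, a glycosyltransferase that modifies NOTCH, had 7 and 14 counts in hPSC and none in mesoderm, at least 3.22-fold lower, and HES1, a NOTCH target, had 13 and 3 against 9 and 12 and was not called.

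MALAT1, a long nuclear noncoding RNA, had 70 and 80 counts in hPSC, 1074 and 1104 in mesoderm (3.68 ± 0.34, adjusted p 1.5e-06), 3421 and 3425 in ectoderm and 74 and 77 in endoderm, so that hPSC and endoderm were low and the other two high. USP44, a deubiquitinase of the spindle checkpoint, had 96 and 53 counts in hPSC, 1 and 0 in mesoderm (143-fold lower, interval 25.2 to 5670), 189 and 171 in ectoderm and 2 and 1 in endoderm. PRTG, an immunoglobulin superfamily receptor of early embryos, had 1 and 0 counts in hPSC, 115 and 118 in mesoderm (243-fold higher, interval 43.3 to 9656), 491 and 420 in ectoderm and 1 and 1 in endoderm.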
